A study of Rattus norvegicus with 9 samples.

Results

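The genes of glycolysis and of the transcriptional response to low oxygen were followed in rat bone marrow mesenchymal stem cells, the adherent stroma of the marrow, from which bone, cartilage and fat cells can be derived. The set was defined by a list of 37 gene symbols and matched by name, and the list was drawn up with earlier results of these data known. Of these, 36 were found in the deposited table, 35 under the listed symbol and Ero1a under its older symbol Ero1l. Pkm and Pfkfb4 each had a second row for a gene described as "-like", so that the set held 38 of the 33539 rows of the table. All 38 rows passed the filter on low counts, which left 14406 genes to be tested. Egln1, an oxygen sensor on the list, was not analysed here.

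The cells spent 48 hours in a hydrogel matrix in which mechanical stress relaxed quickly, at an intermediate rate or slowly, and these groups are called Fast, Medium and Slow, with 3 samples each. Messenger RNA with a poly(A) tail was sequenced from libraries made with a QIAGEN kit intended for single cells, and all groups were grown in low glucose medium with fetal bovine serum. The gel is named SA in the title, the rates of relaxation and the rat strain are not given in the labels, and no group outside a gel was analysed here. The labels do not say whether samples of 1 group stem from different animals or cultures, so p-values rest on a spread between samples that may be technical.

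Glycolysis breaks glucose down to pyruvate in a chain of cytosolic enzymes, and lactate dehydrogenase turns pyruvate into lactate, which leaves the cell through monocarboxylate transporters. Hypoxia-inducible factor (HIF) is a transcription factor whose alpha subunit is hydroxylated and destroyed when oxygen is present, through the EGLN prolyl hydroxylases. When oxygen is low it accumulates and switches on glucose transporters, most glycolytic enzymes, Vegfa and genes that restrain mitochondrial use of pyruvate. Marrow stromal cells live in a tissue of low oxygen tension and rely on glycolysis in culture. Stability of the HIF protein is not visible in messenger RNA.

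Most of the set was lower in Fast than in Slow, and Medium lay between them for the greater number of genes. How often Medium lay between the others over all tested genes is not given here. In Fast against Slow, 25 of the 38 rows were lower and 4 were higher at an adjusted p under 0.05 (edgeR's quasi-likelihood test with Benjamini-Hochberg adjustment over all tested genes), while of all tested genes 21.7% were called lower and 21.2% higher, 42.9% in all. In Medium against Slow, 19 rows were lower and 0 higher, against 5.57% and 4.74% of all tested genes, 10.3% in all. In Fast against Medium, 16 rows were lower and 5 higher, against 17.3% and 15.6% of all tested genes, 33% in all. With library size alone as the scaling, these splits became 22 lower and 8 higher for Fast against Slow and 13 lower and 8 higher for Fast against Medium. Without Fast replicate 1, 26 rows were lower in Medium than in Slow, the 7 added being Hk1, Gpi, Pfkl, Pkm, Bnip3l, Ndrg1 and Ddit4 (edgeR adjusted p from 0.00515 to 0.0366). The 4 rows higher in Fast than in Slow became 1 or 2 without Fast replicate 2 or 3 or without any 1 of the Slow replicates. Fast against Slow and Medium against Slow share the Slow samples, and Fast against Medium shares samples with both.

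The median log2 difference of the 38 rows was -0.29 in Fast against Slow, -0.14 in Medium against Slow and -0.11 in Fast against Medium, where the medians over all tested genes were 0.01, 0.00 and 0.01. Levels are given as CPM (counts scaled to a fixed library total), adjusted with TMM factors. Summed over the set, the level lay between 18496 and 19055 CPM in Fast, against between 21158 and 21340 CPM in Medium and between 23306 and 23523 CPM in Slow, so the groups did not overlap. The set held between 1.91% and 2.30% of the counts of a library. In bulk RNA, fewer cells that express a gene and less of its RNA in each cell cannot be told apart.

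**Figure D1:**
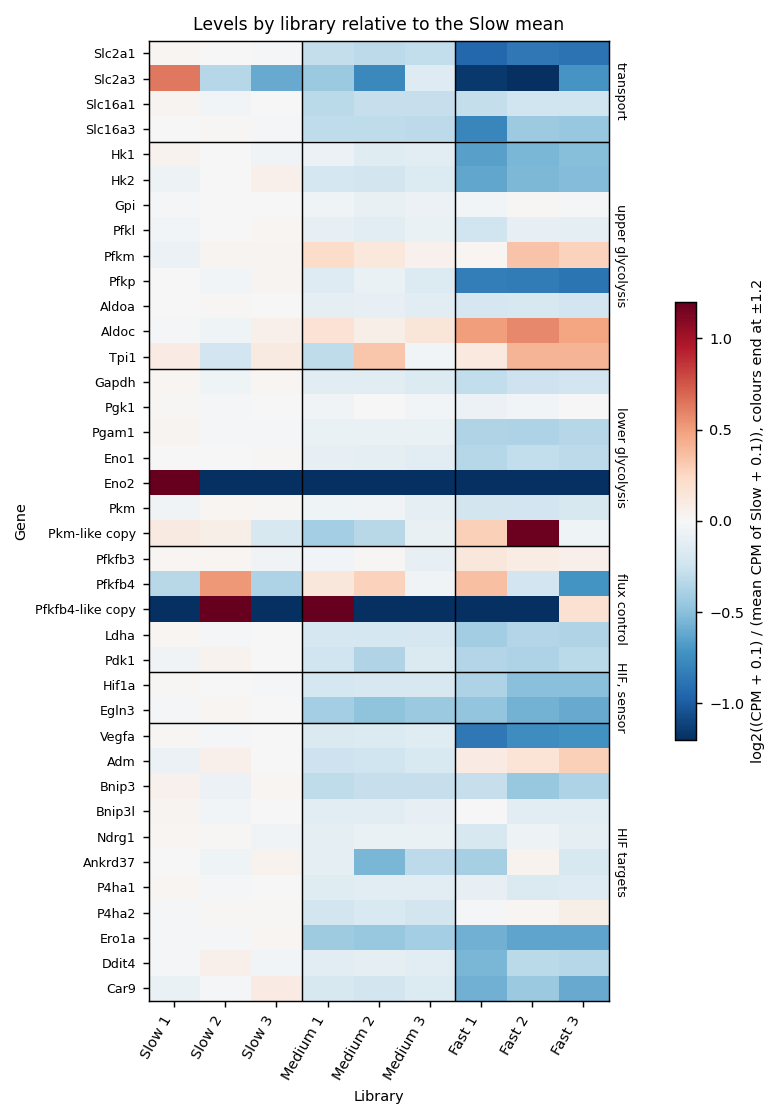
Each row is a gene of the set and each column a library, with colour giving log2 of CPM plus 0.1 over the mean of the 3 Slow libraries plus 0.1, and colours ending at 1.2 on either side. The Fast columns are blue in most rows and the Medium columns are paler, while Aldoc is red in all 3 Fast libraries and Eno2 is red in Slow replicate 1 alone.

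A total of 12 genes were lower in all 3 comparisons, with Slow highest, Medium between and Fast lowest. These were Slc2a1 and Slc16a3 of transport, Hk2, Pfkp and Aldoa of upper glycolysis, Gapdh, Pgam1 and Eno1 of lower glycolysis, Ldha, Hif1a, and the HIF targets Vegfa and Ero1a. With library size alone as the scaling, 7 of the 12 were still lower in all 3, since Aldoa (edgeR adjusted p = 0.363), Gapdh (0.157) and Slc16a3 (0.0582) did not pass in Fast against Medium, nor Pfkp (0.0788) and Pgam1 (0.0947) in Medium against Slow. With upper quartile factors 9 of the 12 were, without Aldoa, Pfkp and Pgam1. In 7 rows no pair of groups was called, and these were Gpi, Tpi1, Pgk1, Bnip3l, Ankrd37, Pfkfb4 and the Pfkfb4-like gene. The group means followed the order Slow, Medium, Fast in 25 of the 38 rows. How many of all tested genes were lower in all 3 comparisons, called in no pair or in this order is not given here. These counts therefore describe the set and cannot be set against the whole table. Libraries held between 14128980 and 15779328 counts, and the common biological coefficient of variation was 7.44%.

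HIF binds DNA at a short core written ACGTG or GCGTG, so the 250 bases before the start of each gene were read from RefSeq (rat build GRCr8) and searched for both cores on both strands. ACGTG also lies inside CACGTG, the site of E-box factors such as MYC, and such overlaps were kept. The 4 windows below are shown because Slc2a1 and Ldha were lower in all 3 comparisons, Aldoc was higher in Fast, and Pfkfb3 was not called between Fast and Slow with TMM scaling. Matches are in capitals, and all 4 genes lie on the plus strand. They lie at chr5:138002272-138002521 (Slc2a1), chr1:106507842-106508091 (Ldha), chr10:63715294-63715543 (Aldoc) and chr17:71944683-71944932 (Pfkfb3).
Slc2a1: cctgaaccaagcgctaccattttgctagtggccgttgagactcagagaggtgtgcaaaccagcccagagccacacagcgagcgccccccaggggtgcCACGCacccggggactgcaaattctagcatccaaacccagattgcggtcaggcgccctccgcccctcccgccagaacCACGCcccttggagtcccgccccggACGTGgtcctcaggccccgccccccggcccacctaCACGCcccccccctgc
Ldha: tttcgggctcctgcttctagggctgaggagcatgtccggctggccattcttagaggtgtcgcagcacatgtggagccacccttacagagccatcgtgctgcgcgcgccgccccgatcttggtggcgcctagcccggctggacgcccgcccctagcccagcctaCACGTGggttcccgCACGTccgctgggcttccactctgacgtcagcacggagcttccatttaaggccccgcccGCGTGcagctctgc
Aldoc: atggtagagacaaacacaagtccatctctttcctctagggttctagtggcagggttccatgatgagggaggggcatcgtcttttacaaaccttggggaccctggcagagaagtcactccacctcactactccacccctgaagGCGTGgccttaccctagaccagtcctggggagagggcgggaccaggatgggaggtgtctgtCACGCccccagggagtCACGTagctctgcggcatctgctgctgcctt
Pfkfb3: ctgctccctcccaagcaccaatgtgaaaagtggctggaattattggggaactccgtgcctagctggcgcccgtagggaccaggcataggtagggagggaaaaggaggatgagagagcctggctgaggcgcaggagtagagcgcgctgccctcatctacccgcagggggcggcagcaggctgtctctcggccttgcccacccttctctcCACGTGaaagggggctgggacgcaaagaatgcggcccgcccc
In Slc2a1 the ACGTG match begins 51 bases before the start, and GCGTG is read on the other strand at 153, 76 and 16 bases. Ldha holds a CACGTG that begins 87 bases before the start, a further ACGTG on the other strand at 73 and a GCGTG at 14. Aldoc holds ACGTG on the other strand at 31 bases and GCGTG at 108 and, on the other strand, at 47. Pfkfb3 holds a CACGTG that begins 42 bases before the start.

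A promoter entry matched 31 of the 36 genes found, and there was no entry for Slc2a3, Pgk1, Bnip3l, Ndrg1 and Ero1a. ACGTG was found in 16 of these 31 windows, or 51.6%, against 18.1% of the 27457 genes of the RefSeq table. Either core was found in 21 of 31, or 67.7%, against 39.6% of all genes, and CACGTG in 6 of 31, or 19.4%, against 6.18%. The list was drawn from genes of glycolysis and of the response to low oxygen, and the RefSeq genes were not matched to it for expression or base content. These shares therefore describe the list and not the gels. Split by direction in Fast against Slow, ACGTG was found in 11 of 22 genes that were lower, in 2 of 3 that were higher and in 3 of 6 that were not called. A match describes letters in a window and not a bound site. The windows of Vegfa, Hk2, Car9, Egln3, Slc16a3, Pkm, Adm, Gpi, Tpi1 and Pfkfb4 hold neither core.

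All 4 transporters of the set were lower in Fast than in Slow, and 3 of them were also lower in Medium. Among all tested genes, 21.7% were lower in Fast than in Slow and 5.57% lower in Medium than in Slow. Slc2a1 encodes GLUT1, the main glucose transporter of stromal cells and a HIF target, and the deposited table places it on chromosome 5 from 138154673 to 138182897, in a build not given in the sources used here. Its level was 287, 304 and 299 CPM in Fast, compared with 452, 444 and 450 in Medium and 559, 549 and 545 in Slow. The 3 groups were apart from each other in every library. The log2 difference was -0.89 ± 0.03 (SE) in Fast against Slow (edgeR adjusted p = 3.46e-12), or 1.86-fold lower, and -0.30 ± 0.03 in Medium against Slow (edgeR adjusted p = 5.63e-06). Medium lay above the midpoint of Fast and Slow by 0.15 ± 0.02 on the log2 scale (edgeR adjusted p = 0.000641).

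Slc16a3 encodes MCT4, the HIF-induced exporter of lactate. It was at 343, 439 and 433 CPM in Fast, against 480, 478 and 477 in Medium and 595, 596 and 585 in Slow. Fast replicate 1 was the lowest of its group, and the groups did not overlap. Its log2 difference was -0.55 ± 0.07 in Fast against Slow (edgeR adjusted p = 8.06e-06) and -0.31 ± 0.06 in Medium against Slow (edgeR adjusted p = 0.00663). Slc16a1, which encodes MCT1, carries lactate in both directions and had 138 ± 2.63 CPM (SD, n = 3) in Fast, compared with 134 ± 2.58 in Medium and 164 ± 4.06 in Slow. Fast and Medium overlapped for this gene and both were below Slow, with log2 differences of -0.25 and -0.29.

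Slc2a3 encodes GLUT3, a high-affinity glucose transporter of neurons, and was scarce. Its level was 0.912, 0.876 and 1.29 CPM in Fast, against 1.57, 1.22 and 1.94 in Medium and 3.42, 1.69 and 1.39 in Slow. Slow replicate 1 stood above the rest, and Medium overlapped with Slow. The log2 difference of -1.07 ± 0.37 in Fast against Slow passed with an edgeR adjusted p of 0.0305. Without Slow replicate 1 it was -0.59 (edgeR adjusted p = 0.216), and the call was also lost without Fast replicate 1 (0.0765) or Fast replicate 2 (0.0912).

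Of the 9 upper glycolytic genes, which carry glucose to the triose phosphates, Fast was lower than Slow in 5 and higher in 2, and 2 were not called. Across all tested genes 21.7% were lower and 21.2% higher, so the share of these 9 that was higher, 22.2%, was near that of all genes. Pfkp, the platelet form of phosphofructokinase, which commits sugar to glycolysis, had 74.0, 73.9 and 71.9 CPM in Fast, compared with 118, 125 and 118 in Medium and 132, 129 and 135 in Slow. Fast was well below both other groups, and Medium was just below Slow in every library. It differed on the log2 scale by -0.85 ± 0.04 in Fast against Slow (edgeR adjusted p = 3.34e-10) and -0.72 ± 0.04 in Fast against Medium (edgeR adjusted p = 3.65e-09). Medium against Slow gave -0.13 ± 0.04 with an edgeR adjusted p of 0.0444, and this call was lost without any 1 library other than Fast replicate 1 or Medium replicate 2 (0.0531 to 0.151).

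The hexokinases trap glucose in the cell as glucose phosphate. Hk1, the widely expressed form, was at 167, 179 and 183 CPM in Fast, against 248, 236 and 238 in Medium and 269, 262 and 253 in Slow. Hk2, the form induced by HIF, was at 135, 143 and 145 CPM in Fast, compared with 180, 179 and 186 in Medium and 200, 208 and 218 in Slow. The groups did not overlap for either gene. In Fast against Slow, Hk1 differed by -0.57 ± 0.04 (edgeR adjusted p = 3.01e-08) and Hk2 by -0.56 ± 0.04 (edgeR adjusted p = 4.1e-08). In Medium against Slow, Hk2 was lower by a log2 difference of -0.20 ± 0.04 (edgeR adjusted p = 0.00496), while Hk1 had -0.12 ± 0.04 and did not pass (edgeR adjusted p = 0.0753).

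Aldoc and Pfkm went the other way. Aldoc, the brain form of aldolase, which splits fructose bisphosphate, had 66.7, 70.5 and 65.6 CPM in Fast, against 53.3, 49.4 and 52.2 in Medium and 46.8, 45.5 and 49.2 in Slow. Fast was the highest group, and Medium and Slow came close to each other without overlap. It was higher by 0.52 ± 0.05 on the log2 scale in Fast against Slow (edgeR adjusted p = 1.85e-06) and by 0.39 ± 0.05 in Fast against Medium (edgeR adjusted p = 4.8e-05). Pfkm, the muscle form of phosphofructokinase, had 53.8, 67.4 and 64.3 CPM in Fast, compared with 61.9, 58.2 and 55.2 in Medium and 50.7, 54.2 and 54.4 in Slow. Fast replicate 1 lay inside the Slow range, and the log2 difference was 0.22 ± 0.08 (edgeR adjusted p = 0.0296). This call was lost without Fast replicate 2 (0.143), Fast replicate 3 (0.0920) or any 1 of the Slow replicates (0.0522 to 0.102).

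The other upper glycolytic genes differed less. Aldoa, the abundant aldolase, had 1797 ± 26.1 CPM in Fast, against 1920 ± 20.5 in Medium and 2077 ± 17.5 in Slow, and was lower in all 3 comparisons, with -0.21 in Fast against Slow. In Fast against Medium its difference was -0.05 with upper quartile factors (edgeR adjusted p = 0.0673) and -0.03 with library size alone (0.363), and neither passed. Pfkl, the liver form of phosphofructokinase, was lower in Fast than in Slow by a log2 difference of -0.15 ± 0.04 (edgeR adjusted p = 0.00439), a call lost at -0.09 with upper quartile factors (0.0589) and at -0.06 with library size alone (0.194). Gpi, which isomerizes glucose phosphate to fructose phosphate, had 976 ± 17.4 CPM in Fast, compared with 937 ± 9.99 in Medium and 985 ± 7.15 in Slow, and its log2 difference of -0.01 ± 0.02 in Fast against Slow did not pass. With library size alone as the scaling, Gpi was higher in Fast by 0.0721 (edgeR adjusted p = 0.0215).

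**Figure D2:**
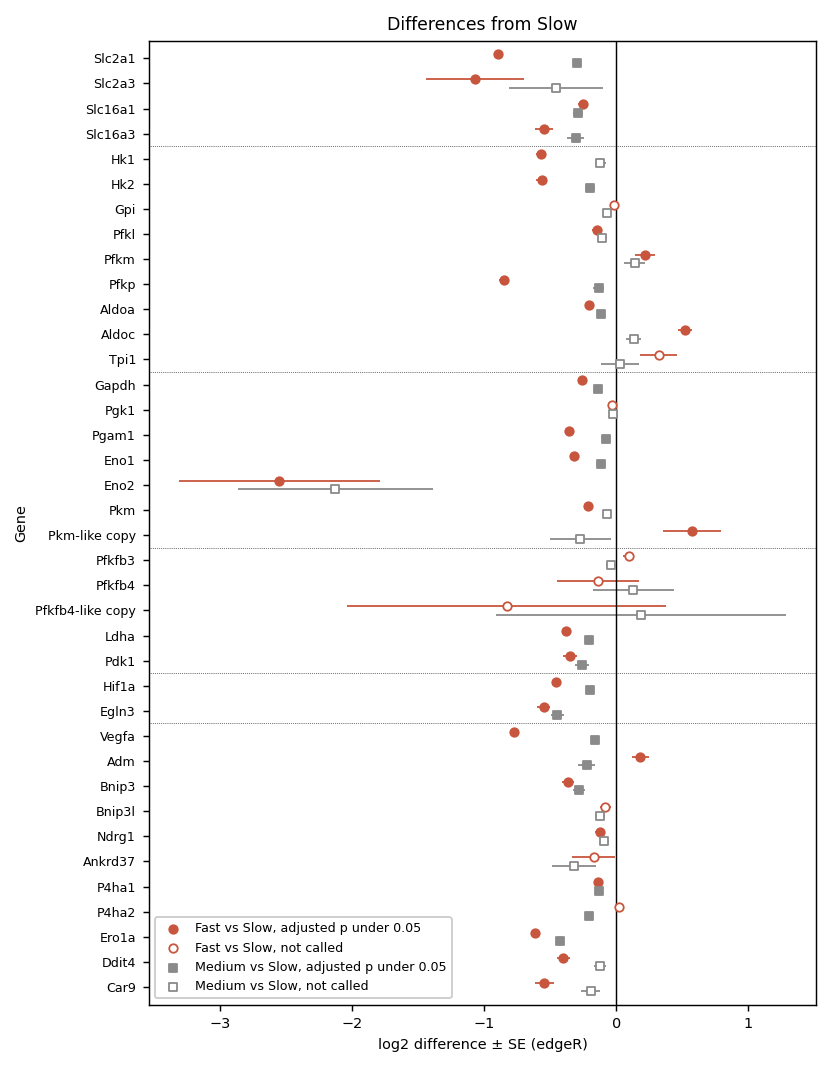
Points give the edgeR log2 difference from Slow for each gene, with bars of 1 SE, for Fast (circles) and Medium (squares), and filled points passed an adjusted p of 0.05. The Fast points lie to the left of 0 in 31 of 38 rows and the Medium points in 33 of 38, and the widest bars belong to Eno2, Slc2a3 and the Pfkfb4-like gene.

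Of the 7 rows of lower glycolysis, which turns triose phosphates into pyruvate with a gain of ATP, 5 were lower in Fast than in Slow, 1 was higher and 1 was not called. Among all tested genes, 21.7% were lower and 21.2% higher. Pgam1, phosphoglycerate mutase, had 815, 812 and 826 CPM in Fast, against 990, 991 and 994 in Medium and 1071, 1032 and 1040 in Slow. The groups did not overlap, and Medium lay nearer to Slow. The log2 difference was -0.36 ± 0.02 in Fast against Slow (edgeR adjusted p = 1.08e-08) and -0.28 ± 0.02 in Fast against Medium (edgeR adjusted p = 2.69e-07). Medium against Slow gave -0.08 ± 0.02 with an edgeR adjusted p of 0.0409, and this call was lost without any 1 Medium or any 1 Slow library (0.0586 to 0.162).

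The abundant enzymes of this stage showed smaller differences. Eno1, the main enolase of most tissues, had 2156 ± 35.7 CPM in Fast, compared with 2480 ± 36.9 in Medium and 2689 ± 18.2 in Slow, a log2 difference of -0.32 ± 0.02 in Fast against Slow (edgeR adjusted p = 8.72e-09). Gapdh, often used as a reference gene, had 1793 ± 45.9 CPM in Fast, against 1948 ± 25.0 in Medium and 2145 ± 64.1 in Slow, a log2 difference of -0.26 ± 0.03 (edgeR adjusted p = 1.36e-06). Pkm, pyruvate kinase, was lower in Fast by -0.21 ± 0.02 on the log2 scale (edgeR adjusted p = 5.13e-06), and its difference of -0.07 in Medium against Slow did not pass (edgeR adjusted p = 0.0934), though it did without Slow replicate 1 (0.0480). Pgk1, phosphoglycerate kinase, had 1424 ± 33.3 CPM in Fast and 1459 ± 14.9 in Slow, and its log2 difference of -0.04 ± 0.02 did not pass (edgeR adjusted p = 0.245), which does not show that the level was equal. Per length, Gapdh was the highest gene of the set in Slow at 2131 ± 58.1 FPKM, ahead of Eno1 at 1416 ± 7.75 and Aldoa at 1284 ± 14.1, and Slc2a3 was the lowest at 0.547 ± 0.277.

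Some rows of the set cannot be read on their own, because the table also holds a gene described as a copy of theirs and no source says how reads that match both were assigned. Eno2, the neuronal enolase, had 4.04, 4.69 and 3.65 CPM in Fast, compared with 5.53, 4.96 and 6.17 in Medium and 63.5, 4.74 and 4.93 in Slow. A single library, Slow replicate 1, was far above the rest. The log2 difference of -2.55 ± 0.76 in Fast against Slow (edgeR adjusted p = 0.0141) was -0.22 without that library (edgeR adjusted p = 0.395). A gene described as gamma-enolase-like on chromosome 9 had 737, 59 and 69 counts in Fast, against 162, 60 and 67 in Medium and 85, 78 and 768 in Slow, so that Fast replicate 1 and Slow replicate 3 were high there. With the counts of both genes added, the difference in Fast against Slow was -0.99 ± 0.63 (edgeR adjusted p = 0.226).

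The same holds for Tpi1 and Pkm. Tpi1, triosephosphate isomerase, had between 217 and 387 counts per library, while a gene described as triosephosphate isomerase-like on chromosome 9 had between 1252 and 3169. Alone, Tpi1 gave a log2 difference of 0.32 ± 0.14 in Fast against Slow, which did not pass (edgeR adjusted p = 0.0849) but passed without Fast replicate 1, Medium replicate 1 or Medium replicate 2 (0.0363 to 0.0497). It also passed when scaled by upper quartiles (0.0443) or by library size alone (0.0314). With both genes added, Fast was lower than Slow by -0.55 ± 0.13 (edgeR adjusted p = 0.00316) and Medium was lower than Slow by -0.44 ± 0.13 (edgeR adjusted p = 0.0420). The second row of Pkm, a pyruvate kinase-like gene on chromosome 20 from 18058245 to 18060661, had 83.8, 156 and 66.2 CPM in Fast, compared with 51.8, 54.4 and 64.5 in Medium and 73.9, 72.1 and 59.96 in Slow. Fast replicate 2 stood far above the rest, and Fast overlapped with Slow. The log2 difference of 0.57 ± 0.22 in Fast against Slow (edgeR adjusted p = 0.0493) was 0.13 without Fast replicate 2 (0.396), and the call was lost without any 1 library other than Fast replicate 1 or 3. In Fast against Medium it was higher by 0.85 ± 0.22 (edgeR adjusted p = 0.00963), and by 0.40 without Fast replicate 2 (0.0159). Pkm with its copies added was lower in Fast than in Slow by -0.18 ± 0.02 (edgeR adjusted p = 1.64e-05). Gapdh, Ldha, Eno1 and Pgk1 had such rows as well. With these added, Fast against Slow gave -0.25 ± 0.02 for Gapdh (edgeR adjusted p = 4.01e-08), -0.38 ± 0.02 for Ldha (2.99e-09) and -0.32 ± 0.02 for Eno1 (7.2e-09). Pgk1 gave -0.04 ± 0.02 and did not pass (0.246). All 12 genes lower in all 3 comparisons remained so with copies added.

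**Figure D3:**
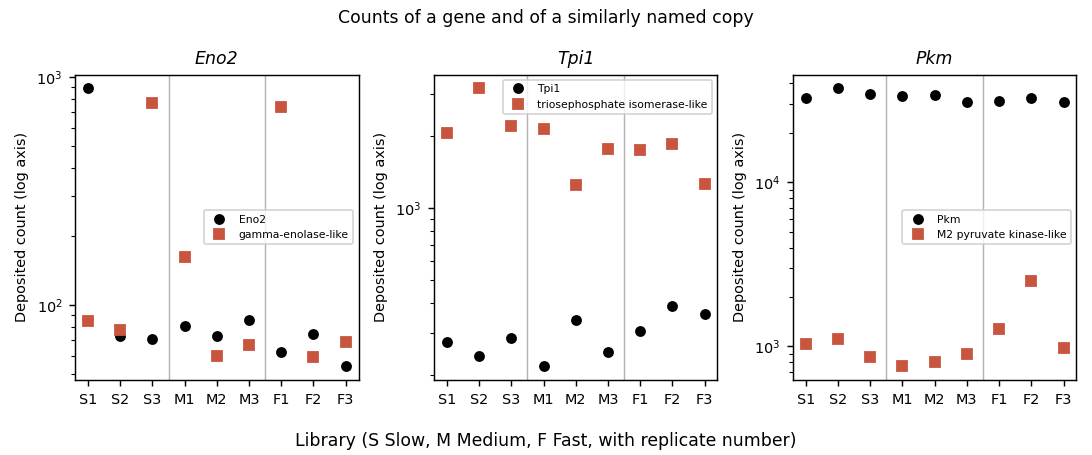
Deposited counts on a log axis in the 9 libraries for Eno2, Tpi1 and Pkm (black circles) and for a similarly named gene (red squares). High counts appear in Slow replicate 1 for Eno2 and in Slow replicate 3 and Fast replicate 1 for the gamma-enolase-like gene, and the triosephosphate isomerase-like gene holds more counts than Tpi1 in all 9 libraries.

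Of the 5 rows for control of flux and the fate of pyruvate, Ldha and Pdk1 were lower in Fast than in Slow and the other 3 were not called. Across all tested genes 21.7% were lower and 21.2% higher, and 5 rows are few to set against these shares. Ldha encodes the lactate dehydrogenase subunit that favours lactate, and had 1460, 1524 and 1517 CPM in Fast, against 1699, 1680 and 1693 in Medium and 1984, 1923 and 1941 in Slow. The groups formed 3 steps without overlap, with log2 differences of -0.38 ± 0.02 in Fast against Slow (edgeR adjusted p = 4.6e-09) and -0.21 ± 0.02 in Medium against Slow (edgeR adjusted p = 2.65e-05). Pdk1, the kinase that shuts pyruvate out of mitochondria by inhibiting pyruvate dehydrogenase, had 55.3, 54.6 and 56.5 CPM in Fast, compared with 59.8, 55.1 and 62.5 in Medium and 68.6, 72.9 and 70.6 in Slow. Fast and Medium overlapped and both were below Slow, by -0.35 ± 0.05 (edgeR adjusted p = 8.5e-05) and -0.26 ± 0.05 (edgeR adjusted p = 0.00556).

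Pfkfb3 makes the sugar phosphate that activates phosphofructokinase, and had 154, 149 and 146 CPM in Fast, against 137, 141 and 131 in Medium and 142, 143 and 136 in Slow. Fast was the highest group, and Medium and Slow overlapped. It was higher in Fast than in Medium by 0.13 ± 0.04 on the log2 scale (edgeR adjusted p = 0.0208), a call lost without Medium replicate 3 (0.101). In Fast against Slow the difference was 0.09 ± 0.04 and did not pass (edgeR adjusted p = 0.0726), but it passed at 0.15 with upper quartile factors (0.00663) and at 0.18 with library size alone (0.00185). Pfkfb4, an isozyme of the same kind, had between 24 and 61 counts per library and its -like gene between 0 and 38, and no difference was detectable at this depth.

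Hif1a, the oxygen-regulated subunit of HIF, was itself lower in Fast at the level of RNA. It lies on chromosome 6 from 96810907 to 96856052 in the deposited table, and had 817, 744 and 744 CPM in Fast, compared with 913, 924 and 921 in Medium and 1063, 1056 and 1042 in Slow. Every Fast library was below every Medium library, and every Medium library was below every Slow library. It differed on the log2 scale by -0.46 ± 0.03 in Fast against Slow (edgeR adjusted p = 3.35e-08), -0.20 ± 0.03 in Medium against Slow (edgeR adjusted p = 0.00099) and -0.26 ± 0.03 in Fast against Medium (edgeR adjusted p = 2.12e-05). Egln3, an oxygen sensor that marks HIF for destruction and is itself a HIF target, had 53.3, 50.0 and 48.9 CPM in Fast, against 55.9, 53.0 and 54.4 in Medium and 72.9, 75.5 and 74.3 in Slow. Fast and Medium overlapped, and both were below Slow, by -0.55 ± 0.05 (edgeR adjusted p = 4.26e-07) and -0.45 ± 0.05 (edgeR adjusted p = 2.55e-05). Medium was below the midpoint of Fast and Slow by -0.17 ± 0.04 (edgeR adjusted p = 0.0157), a call lost without Medium replicate 2 (0.0860) or Medium replicate 3 (0.0646).

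Of the 11 HIF targets outside glycolysis, 7 were lower in Fast than in Slow, 1 was higher and 3 were not called. Among all tested genes, 21.7% were lower and 21.2% higher. Vegfa, the main growth factor for blood vessels, was the most counted of these 11 targets, and the table places it on chromosome 9 from 17340341 to 17355681. It had 1312, 1426 and 1444 CPM in Fast, compared with 2118, 2129 and 2156 in Medium and 2405, 2355 and 2389 in Slow. Fast was far below both other groups and Medium was slightly below Slow, with no overlap. The log2 difference was -0.77 ± 0.03 in Fast against Slow (edgeR adjusted p = 3.21e-11), or 1.71-fold lower, -0.61 ± 0.03 in Fast against Medium (edgeR adjusted p = 6.67e-10) and -0.16 ± 0.03 in Medium against Slow (edgeR adjusted p = 0.00283).

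Ero1a, an oxidase that forms disulfide bonds in the endoplasmic reticulum, had 268, 257 and 257 CPM in Fast, against 296, 292 and 301 in Medium and 396, 395 and 407 in Slow. Here Medium lay near Fast and both were well below Slow. The log2 difference was -0.61 ± 0.03 in Fast against Slow (edgeR adjusted p = 3.98e-10) and -0.43 ± 0.03 in Medium against Slow (edgeR adjusted p = 2.79e-07). Car9, a carbonic anhydrase of the cell surface that is a classic marker of hypoxia, had 19.3, 21.1 and 18.9 CPM in Fast, compared with 25.2, 24.7 and 25.7 in Medium and 27.2, 28.4 and 30.9 in Slow. The groups did not overlap, and the log2 difference was -0.54 ± 0.07 in Fast against Slow (edgeR adjusted p = 2.86e-05), while that of -0.19 ± 0.07 in Medium against Slow did not pass (edgeR adjusted p = 0.118).

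Adm and P4ha2 were lowest in Medium. Adm, the vessel-dilating peptide adrenomedullin, had 35.7, 37.4 and 40.6 CPM in Fast, against 28.0, 28.2 and 29.5 in Medium and 31.9, 34.9 and 33.3 in Slow. Fast was above Slow and Slow above Medium in every library. It was higher in Fast than in Medium by 0.41 ± 0.07 on the log2 scale (edgeR adjusted p = 0.000254) and below the midpoint of Fast and Slow in Medium by -0.32 ± 0.06 (edgeR adjusted p = 0.00201). Its differences of 0.18 ± 0.07 in Fast against Slow (edgeR adjusted p = 0.0373) and -0.23 ± 0.07 in Medium against Slow (edgeR adjusted p = 0.0496) were close to the threshold. The first was lost without Fast replicate 2 or 3 or without Slow replicate 1 or 3 (0.0616 to 0.152), and the second without Fast replicate 2 or without any 1 Medium or Slow library (0.0558 to 0.167).

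P4ha2, a subunit of the enzyme that hydroxylates proline in collagen, had 295, 306 and 315 CPM in Fast, compared with 258, 264 and 258 in Medium and 296, 303 and 303 in Slow. Fast and Slow overlapped and Medium was below both. It was lower in Medium than in Slow by -0.21 ± 0.03 (edgeR adjusted p = 0.000534) and higher in Fast than in Medium by 0.23 ± 0.03 (edgeR adjusted p = 4.81e-05). P4ha1, the other such subunit on the list, had 350 ± 9.03 CPM in Fast, against 352 ± 3.15 in Medium and 386 ± 7.38 in Slow, and was lower than Slow in both. With library size alone as the scaling, P4ha1 did not pass in Fast against Slow at -0.06 (edgeR adjusted p = 0.135), and P4ha2 passed as higher at 0.11 (0.0128).

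Bnip3, a mitochondrial protein that promotes removal of mitochondria, was lower than Slow in Fast by -0.37 ± 0.04 (edgeR adjusted p = 9.26e-06) and in Medium by -0.28 ± 0.04 (edgeR adjusted p = 0.000597). Its relative Bnip3l was not called, with 207 ± 11.6 CPM in Fast, compared with 201 ± 2.71 in Medium and 219 ± 4.79 in Slow. Without Fast replicate 1, Bnip3l was lower in Fast than in Slow by -0.13 (edgeR adjusted p = 0.00284) and lower in Medium than in Slow by -0.12 (0.00605). Ddit4, an inhibitor of the growth kinase mTOR, was lower in Fast by -0.40 ± 0.05 (edgeR adjusted p = 8.87e-06), and Ndrg1, a gene induced by stress, by -0.12 ± 0.04 (edgeR adjusted p = 0.0114). The call of Ndrg1 was lost at -0.07 with upper quartile factors (0.133) and at -0.04 with library size alone (0.412). Ankrd37 had 6.04 ± 0.93 CPM in Fast and 6.80 ± 0.23 in Slow, and no difference was detectable at this depth.

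**Figure D4:**
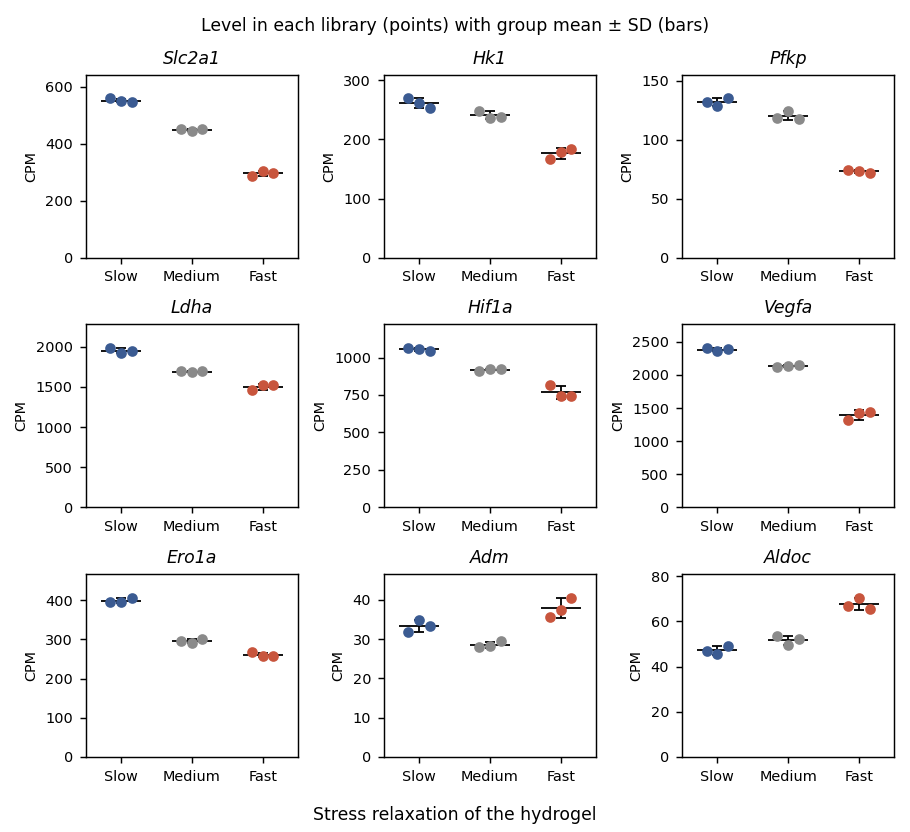
Points are the CPM of each library and black bars the mean ± SD of the 3 libraries of Slow, Medium and Fast, on axes that start at 0. Slc2a1, Ldha and Hif1a step down from Slow to Fast, Hk1, Pfkp and Vegfa drop mainly between Medium and Fast, Ero1a drops mainly between Slow and Medium, Adm is lowest in Medium and Aldoc is highest in Fast.

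The place of Medium differed between genes. Over the 25 rows lower in Fast than in Slow, the log2 difference of Medium from Slow was between 15.7% and 115% of that of Fast from Slow, with a median of 53.7%. It was smallest for Pfkp at 15.7%, Vegfa at 20.6%, Hk1 at 21.0% and Pgam1 at 22.3%, and largest for Slc16a1 at 115%, P4ha1 at 94.8%, Eno2 at 83.5% and Egln3 at 81.6%. The value of Eno2 rests on Slow replicate 1, without which its difference in Fast against Slow was -0.22 (edgeR adjusted p = 0.395). Set against the midpoint of the other groups on the log2 scale, Medium was higher in 5 rows and lower in 6, where 7.2% and 4.89% of all tested genes were called, 12.1% in all, and with library size alone as the scaling 5 were higher and 10 lower. The 5 were Pfkp at 0.29 ± 0.03, Vegfa at 0.23 ± 0.03, Hk1 at 0.17 ± 0.03, Slc2a1 at 0.15 ± 0.02 and Pgam1 at 0.10 ± 0.02. The 6 were Adm and P4ha2, and Egln3 at -0.17, Slc16a1 at -0.16, Ero1a at -0.12 and Gpi at -0.07. Among them, Adm, P4ha2, Slc16a1 and Gpi had their lowest group mean in Medium. The call of Gpi was lost without any 1 library other than Fast replicate 1. Without Fast replicate 1, Hif1a passed as higher at 0.05 (edgeR adjusted p = 0.0189) and Slc16a3 as lower at -0.09 (0.00230).

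The makeup of 6 families of related genes was compared as well. Shares were taken from the deposited FPKM, which is scaled to gene length. Pfkp made up 16.1 ± 0.98% (SD, n = 3) of the summed FPKM of the phosphofructokinases in Fast, against 23.6 ± 0.84% in Medium and 24.3 ± 0.50% in Slow, while Pfkl made up 73.6 ± 0.44%, 67.7 ± 0.99% and 68.3 ± 0.33%. Aldoc made up 3.47 ± 0.09% of aldolase in Fast, compared with 2.51 ± 0.11% in Medium and 2.12 ± 0.10% in Slow. The share of Hk2 in the sum with Hk1 was 28.4 ± 0.21% in Fast and 28.3 ± 1.47% in Slow, and these overlapped. Slc16a3 took 77.2 ± 2.13% of the sum with Slc16a1 in Fast and 80.7 ± 0.42% in Slow.

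With 3 libraries against 3, a two-sided exact permutation test cannot give a p below 0.1, and the smallest value adjusted over the 18 comparisons of such shares was 0.129, so none passed. The share of P4ha2 in the sum with P4ha1 was 43.2 ± 1.35% in Fast, against 39.2 ± 0.26% in Medium and 40.4 ± 0.76% in Slow. Bnip3 took 72.4 ± 0.73% of the sum with Bnip3l in Fast, compared with 74.0 ± 0.22% in Medium and 76.1 ± 0.47% in Slow.

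**Figure D5:**
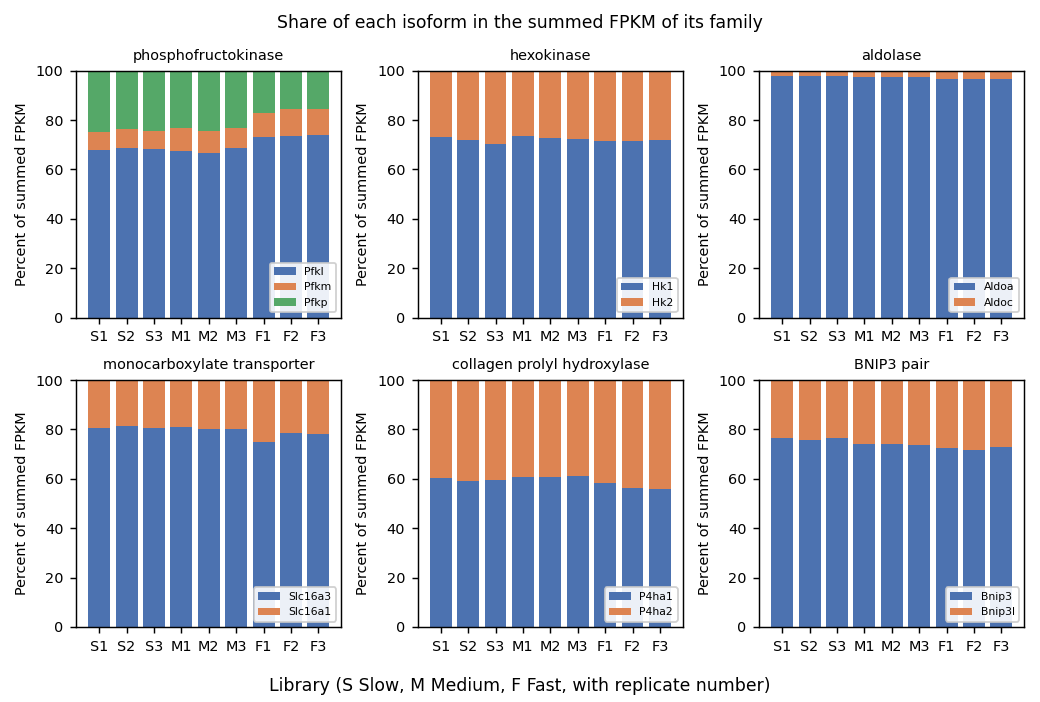
Stacked bars give the percent of summed FPKM that each gene of a family takes in each of the 9 libraries, on axes from 0 to 100. The Pfkp part of phosphofructokinase is thinner in the 3 Fast libraries than in the other 6, and the hexokinase bars hardly differ.

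Genes of the same pathways outside the set were read from lists. Of all tested genes, 21.2% were higher and 21.7% lower in Fast than in Slow. In Medium against Slow these shares were 4.74% and 5.57%, and in Fast against Medium 15.6% and 17.3%. The list of other hypoxia targets held 25 rows, among them a second row for Rbpj with 3 to 12 counts per library. Of these 25 rows, 15 were lower in Fast than in Slow and 2 were higher, 14 were lower and 0 higher in Medium against Slow, and 8 were lower and 4 higher in Fast against Medium. The median log2 difference of that list was -0.24 in Fast against Slow. Bhlhe40, a repressor induced by hypoxia, had 210 ± 2.84 CPM in Fast, against 366 ± 12.5 in Medium and 405 ± 12.1 in Slow, a log2 difference of -0.95 ± 0.03 in Fast against Slow (edgeR adjusted p = 1.28e-11).

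Of 11 other regulators of HIF that were tested, 2 were higher and 3 lower in Fast than in Slow, while Medium was higher than Slow in 0 and lower in 2. The median log2 difference in Fast against Slow was 0.01. The shares in Fast against Slow, 18.2% higher and 27.3% lower, were near those of all tested genes, 21.2% and 21.7%. Cited2, a HIF target that competes with HIF for its coactivators, had 138 ± 1.32 CPM in Fast, compared with 154 ± 0.32 in Medium and 234 ± 5.38 in Slow, a log2 difference of -0.76 ± 0.03 (edgeR adjusted p = 9.17e-11). Arnt2, a partner subunit of HIF that is best known from neurons, had 19.8 ± 0.73 CPM in Fast, against 7.86 ± 1.06 in Medium and 6.91 ± 0.76 in Slow, a log2 difference of 1.52 ± 0.12 (edgeR adjusted p = 1.1e-07). Among 15 other glycolytic isoforms and transporters tested, 4 were higher and 6 lower in Fast than in Slow, and 1 was higher and 1 lower in Medium than in Slow. Hk3, the hexokinase best known from white blood cells, had 77.5 ± 3.39 CPM in Fast and 47.9 ± 3.29 in Slow, a log2 difference of 0.69 ± 0.06 (edgeR adjusted p = 4.14e-07), and Bpgm, which makes bisphosphoglycerate, was lower by -0.66 ± 0.09 (edgeR adjusted p = 2.23e-05).

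The routes that glucose and pyruvate take outside glycolysis gave mixed counts. Of all tested genes, 21.7% were lower in Fast than in Slow, 5.57% lower in Medium than in Slow and 17.3% lower in Fast than in Medium. Of 7 genes of the pentose phosphate pathway, 3 were lower and 0 higher in Fast than in Slow, 1 was lower and 0 higher in Medium than in Slow, and 4 were lower in Fast than in Medium. Taldo1, transaldolase, had 167 ± 4.86 CPM in Fast, compared with 313 ± 5.48 in Medium and 335 ± 7.06 in Slow, 2.004-fold lower in Fast than in Slow (edgeR adjusted p = 4.5e-12), and Tkt, transketolase, had a log2 difference of -0.77 ± 0.03 (edgeR adjusted p = 2.67e-11). Of 22 genes of pyruvate oxidation and the tricarboxylic acid cycle, 7 were lower and 0 higher in Fast than in Slow, with a median log2 difference of -0.04, and 1 was lower and 0 higher in Medium than in Slow. Pdhb of pyruvate dehydrogenase was lower by -0.27 ± 0.05 (edgeR adjusted p = 0.000684).

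Of 12 genes of gluconeogenesis and glycogen, 3 were higher and 4 lower in Fast than in Slow, and 2 were higher and 4 lower in Medium than in Slow. This list shares Gys1, Gbe1 and Pgm1 with the other hypoxia targets. The brain glycogen phosphorylase gene Pygb was higher by 0.57 ± 0.06 (edgeR adjusted p = 8.88e-07) and its liver counterpart Pygl lower by -0.27 ± 0.03 (edgeR adjusted p = 3.41e-06). Of 11 upstream regulators of glucose use, 2 were higher and 4 lower in Fast than in Slow, and 1 was higher and 1 lower in Medium than in Slow. For all tested genes the shares higher and lower were 21.2% and 21.7% in Fast against Slow, and 4.74% and 5.57% in Medium against Slow. Txnip, which restrains glucose uptake and is induced by glucose, had 212 ± 5.89 CPM in Fast, against 169 ± 8.62 in Medium and 109 ± 5.15 in Slow, a log2 difference of 0.95 ± 0.05 in Fast against Slow (edgeR adjusted p = 3.5e-10). Myc, a driver of glycolytic genes, had 48.5 ± 1.199 CPM in Fast, compared with 66.2 ± 2.73 in Medium and 69.2 ± 5.73 in Slow, a log2 difference of -0.51 ± 0.06 (edgeR adjusted p = 8.48e-06).

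Some markers of cell types differed between these groups, in both directions. Of all tested genes, 21.2% were higher and 21.7% lower in Fast than in Slow, and 4.74% and 5.57% in Medium than in Slow. The sums below are weighted towards the most counted genes of each list. All 10 stromal markers searched for passed the filter on low counts. In Fast against Slow 4 of them were higher and 4 lower, with a median log2 difference of 0.05. Their summed level was between 22289 and 25588 CPM in Fast, against 18171 and 19049 in Medium and 16619 and 17232 in Slow, so the sum does not describe the list as a whole. Of 18 myeloid markers tested, 14 were higher and 2 lower in Fast than in Slow, and 10 were higher and 0 lower in Medium than in Slow. The summed myeloid level was between 3081 and 3262 CPM in Fast, compared with 2156 and 2168 in Medium and 1835 and 1918 in Slow. Among defining markers of other cells, Cd79b, Cd3g and Ms4a1 of lymphocytes, Hba1 and Hbb of red cells and Dcstamp of osteoclasts were at 0 in all 9 libraries, and Cdh5, Kdr, Emcn and Cd34 of endothelium had at most 10 counts in each. Of 6 osteoclast markers tested, 2 were higher and 1 lower in Fast than in Slow. Of these 6, 5 had a positive log2 difference, called or not, and the median was 0.26. Their list nevertheless summed to between 824 and 857 CPM in Fast, against 1059 and 1080 in Medium and 1184 and 1214 in Slow, so this sum too does not describe the list as a whole. Of the 3 lymphoid and neutrophil markers that could be tested all 3 were higher in Fast than in Slow, and their list summed to at most 58.3 CPM. Endothelial markers were called in 0 of 3 tested and erythroid markers were lower in 1 of 2, with summed levels of at most 20.1 and 3.49 CPM. The part of the myeloid, osteoclast and stromal differences in the results on glycolysis and hypoxia genes was not tested.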

How the data were processed

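The authors deposited a single table for all 9 samples with, per the file headers, a read count and an FPKM value (scaled to gene length and library) for each gene and sample. HTSeq, Cufflinks 2.1.1, Bowtie 0.12.9 and the mouse build mm10 appear in the submitters' processing notes, with no roles, although the gene identifiers are rat Ensembl identifiers. The build of the table's coordinates is therefore not given in the sources used here, nor is use of strand. Either could affect reads shared by similar genes.

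Counts were filtered with filterByExpr (minimum count 10), which left genes holding 99.91% of counts, and scaled with TMM. All 9 samples entered 1 model in edgeR 4.0.16 (R 4.3.3), tested by quasi-likelihood, and p-values were adjusted by Benjamini-Hochberg over 14406 genes. Medium was also tested against the log-scale midpoint of Fast and Slow. A gene was called at an adjusted p under 0.05. TMM factors were 1.036 to 1.037 in Fast, 0.9874 to 0.9879 in Medium and 0.9715 to 0.9812 in Slow. The tests were checked on simulated data.

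The members, the pathway and marker lists and the tests were chosen with earlier results of these data known. Values in every library are given for the 3 largest called differences in Fast against Slow of each role and for called genes against its majority. Of each pathway list, the 2 called genes with the smallest adjusted p are named, except for some that are not reported here. Alternatives were other scalings and filters, DESeq2 1.42.0, limma 3.58.1 (voom, and log2(FPKM + 1) or log2(FPKM + 0.1)), a replicate block, only the 6 samples of a pair, each library left out, and, chosen after seeing the data, copies added to their parent gene.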

Additional observations from a re-analysis of the deposited data

How the results depend on the processing

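The counts of called rows kept within 1.5 times their main value under every alternative, with these exceptions. For rows higher in Fast than in Slow, 4 in the main test, the count was 8 with library size alone as the scaling, 2 with DESeq2, 2 with limma on log2(FPKM + 1) and 2 with limma on log2(FPKM + 0.1), and 1 to 5 when each library was left out. Library size alone also gave 8 rows higher in Fast than in Medium in place of 5, and 10 rows below the midpoint in Medium in place of 6. Leaving out each library gave 23 to 25 rows lower in Fast than in Slow, 16 to 26 lower in Medium than in Slow and 16 to 17 lower in Fast than in Medium. Of 3135 values of single rows under the alternatives, 2924 kept their direction and side of the threshold, 51 changed sign with no call on either side, 99 lost a call, 58 gained one and 3 changed sign with a call. The latter were Gpi in Fast against Slow with library size alone (0.0721), and Tpi1 with its copy added in Fast against Slow (-0.55) and in Medium against Slow (-0.44). For Tpi1 the added counts are those of the copy. For Gpi that scaling leaves out the TMM factors, which were 1.036 to 1.037 in Fast and 0.9715 to 0.9812 in Slow. Replicate numbers did not pair the samples: over 9 same-numbered pairs the correlation of deviations from the group means was between -0.0323 and 0.0456. With the number as a replicate block, 4 rows were higher and 25 lower in Fast than in Slow, 0 and 16 in Medium than in Slow, 5 and 16 in Fast than in Medium, and 5 and 5 against the midpoint. Depth limits Slc2a3, Pfkfb4, its -like gene and Ankrd37, which had few counts.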
